A study of Rattus norvegicus with 8 samples.

Results

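The genes described here move glutamate across membranes or convert it, and they were compared between the spinal cord of stressed and control rats. They are 9 genes: the membrane transporters Slc1a1, Slc1a2, Slc1a3 and Slc1a4, the vesicular transporters Slc17a6, Slc17a7 and Slc17a8, and the enzymes Glul and Glud1. The members were chosen by name, as every probe that the array files list under one of these gene symbols, which gave 11 of 30367 probes and 9 of 26514 gene names. Of these, 9 probes of 7 genes had a signal well above background on 4 or more of the 8 arrays and were tested, together with all 23677 probes that passed the same filter. The probes of Slc17a7 and Slc17a8 did not pass it.

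RNA came from the lumbar L6S1 spinal cord of male Wistar rats, 12 weeks old, with 1 Agilent 1-colour array per rat. The 4 stressed rats went through chronic water avoidance (WA) stress, in which a rat sits on a small platform in a water-filled cage for 1 h, repeated on 10 days. The cord was collected on day 11, with 24 h between the last session and dissection, and was flushed out of the spine with saline and freed of its meninges. The 4 control rats are labelled only as controls, and the study describes them as handled over the same days.

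Glutamate is the main fast excitatory transmitter of the dorsal horn, including at the endings of sensory fibres from the viscera. Neurons load it into vesicles with the vesicular glutamate transporters (VGLUT). After release it is removed mostly by astrocytes, through GLT-1 and GLAST, and turned into glutamine by glutamine synthetase, and the glutamine returns to neurons as a precursor. Glutamate dehydrogenase links glutamate to the citric acid cycle.

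The arrays hold 60-base probes, and 4 of them carried the comparison of the astrocyte transporters because they measured the same gene at different places. The Slc1a2 probes lie on chromosome 3 of the rn4 assembly, plus strand, at chr3:87988366-87988425 and chr3:87992261-87992320. The Slc1a3 probes lie on chromosome 2, minus strand, at chr2:58272281-58272340 and chr2:58270245-58270304. No genome of this assembly was read, so exons and untranslated regions were not analysed here. Each probe is named below by its listed start position in its transcript. The Slc1a3 probes are listed for the same transcript. The Slc1a2 probes are listed for different transcripts, so 1704 and 1779 are not places on a shared scale. The Slc1a3 probe at 3787 is shown as 30 of its bases, with the letters AATAAA in capitals, the usual polyadenylation signal of messenger RNA ends. These letters, searched on the printed strand only, are found in 2547 of the 30367 probes, or 8.39%.
Slc1a2 probe at 1704: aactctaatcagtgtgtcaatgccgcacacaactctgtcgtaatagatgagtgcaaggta
Slc1a2 probe at 1779: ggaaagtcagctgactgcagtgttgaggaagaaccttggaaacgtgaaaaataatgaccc
Slc1a3 probe at 1751: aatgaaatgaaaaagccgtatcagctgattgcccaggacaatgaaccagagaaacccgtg
Slc1a3 probe at 3787, from base 31 to base 60: agatgtattttcAATAAAgaaaagatagtt

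Signals are given as log2 of the processed signal minus log2 of the 75th percentile of the same array, so that 0 is the 75th percentile. A level of one probe cannot be set against that of another probe, since probes bind with different strength. Fold changes are log2 differences, stressed minus control. Adjusted p values are from limma, with Benjamini-Hochberg adjustment across the tested probes, and a probe was called at a false discovery rate (FDR) below 0.1. Exact p values are two-sided and from the 70 labelled splits of the arrays into 4 and 4, so that 0.0286 is the lowest p they can give. The labels name the arrays as separate replicates, and the number of arrays limits the precision. In bulk tissue, fewer cells of a type and less RNA per cell cannot be told apart.

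Control 2 stood apart from the other controls, and this touches many of the results below. Whether its label, its RNA quality or the rat itself differed cannot be told apart with these files. On the first principal component of the tested probes, which held 54.1% of the variance, control 2 was at 46.1, the stressed rats were between 8.23 and 34.5, and the other controls were between −56.3 and −39.4. The highest correlation of control 2 was 0.983 with another control and 0.992 with a stressed rat. Control 2 lay nearer to the stressed mean than to the mean of controls 1, 3 and 4 at 68% of all tested probes. Coverage along transcripts split the arrays in the same way. For each of 1787 transcripts with 2 probes 300 or more bases apart, the log2 signal of the 3′ probe was subtracted from that of the 5′ probe. These values were centred over the 8 arrays for each transcript, and their median on an array is called its coverage difference. It was −0.31, 0.23, −0.30 and −0.18 in controls 1 to 4, and 0.17, 0.15, 0.17 and 0.09 in stressed rats 1 to 4. All arrays lay on 1 slide, with stressed rats in row 1 and controls in row 2, so that row and group cannot be told apart. Results of the member genes are therefore given for all 8 arrays, without control 2, and with the coverage difference as a covariate. Control 2 was singled out with these same data, as the control that lay with the stressed rats. Leaving it out narrows the spread of the controls where it stood apart. The p values without it therefore describe that fit and do not have their usual meaning. Apart from control 2, the coverage difference was below 0 in every control and above 0 in every stressed rat. The fit with the covariate therefore rests largely on control 2 to tell coverage from group.

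No member was called with all 8 arrays. In limma, 0 of 9 probes passed FDR below 0.1, while 3.74% of all tested probes did. At an unadjusted p below 0.05 there were 3 of 9 probes (Slc17a6, Slc1a1 and the Slc1a2 probe at 1779), against 20.3% of all probes. The fold change was above 0 at 6 probes and below 0 at 3. Both Slc1a2 probes, Glul and Slc1a4 had values above 0, Slc17a6 and Slc1a1 had values below 0, Slc1a3 had 1 probe on each side and Glud1 was near 0. A difference between roles was not tested. The median fold change of the 9 probes was 0.26, and that of all tested probes was 0.06. The groups did not overlap at 1 of 9 probes, Slc17a6, against 12.1% of all probes.

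**Figure D1:**
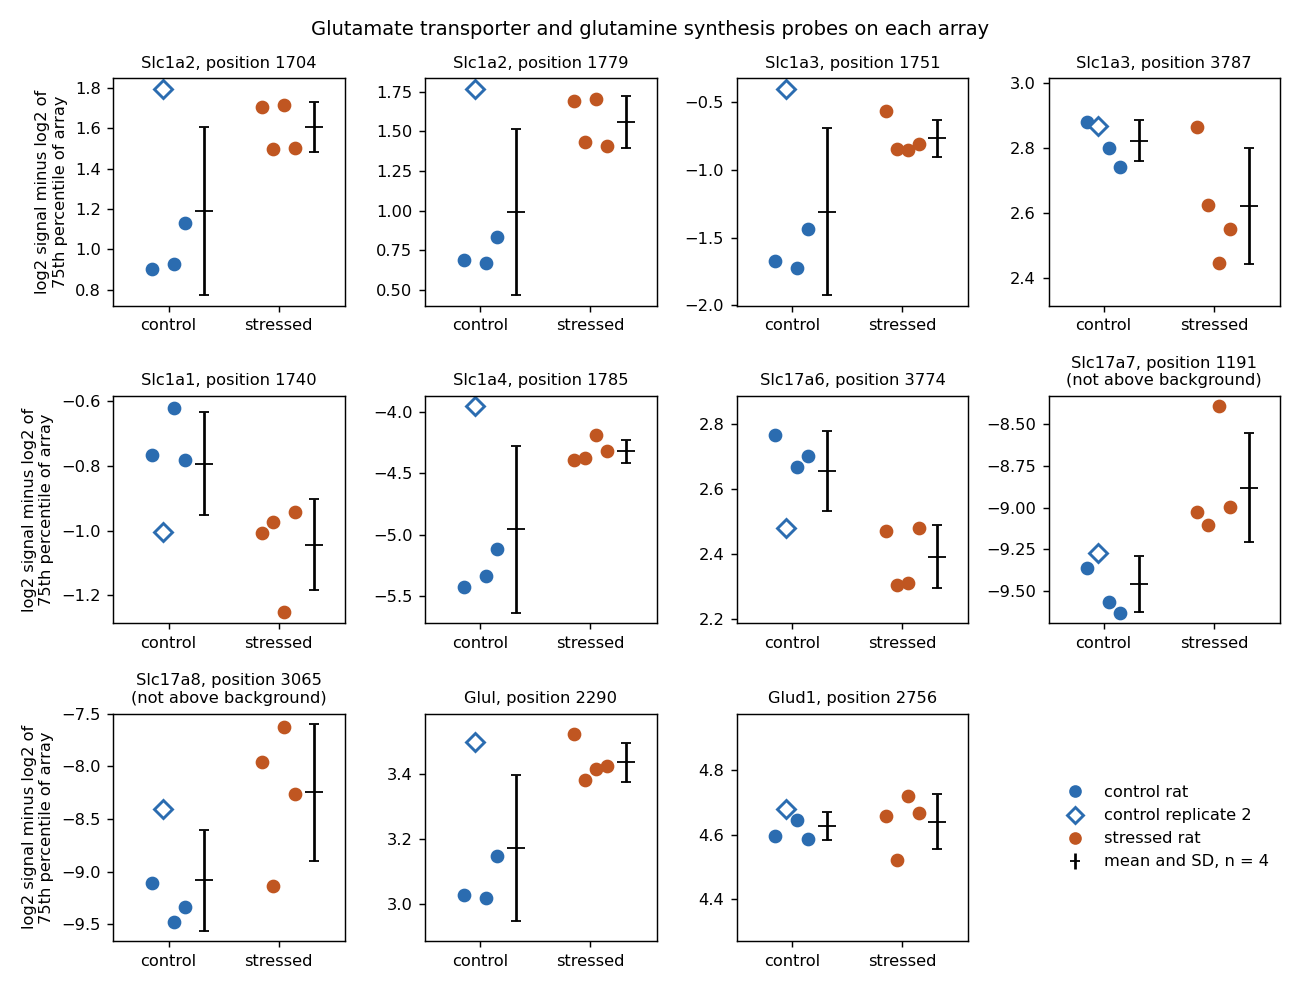
Log2 signal, scaled to the 75th percentile of its array, for each of the 11 probes, with 1 point per rat and the mean and SD of each group (n = 4); the scale differs between panels. Control 2 (open diamond) lies above the stressed rats for Slc1a2, the Slc1a3 probe at 1751 and Slc1a4 and among them for Glul and Slc1a1, while Slc17a6 is lower in the stressed rats, with 1 of them level with control 2, and Glud1 is at one level in both groups.

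Slc1a2 encodes GLT-1, the main glutamate transporter of astrocytes. At the probe at 1704, the control rats 1 to 4 were at 0.91, 1.79, 0.93 and 1.13, and the stressed rats 1 to 4 were at 1.71, 1.50, 1.72 and 1.50. The 4 stressed rats lay above 3 of the controls, and control 2 lay above all of them. The group means were 1.19 ± 0.42 (SD, n = 4) in controls and 1.61 ± 0.12 (SD, n = 4) in stressed rats. The fold change was 0.42 (SE 0.20, limma adjusted p = 0.277, exact permutation p = 0.143), with a 95% interval from −0.04 to 0.87. The difference was within the spread of the controls.

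At the Slc1a2 probe at 1779, the controls were at 0.69, 1.77, 0.67 and 0.83, and the stressed rats at 1.69, 1.43, 1.71 and 1.41. Again control 2 was the highest array and controls 1, 3 and 4 were the lowest. The fold change was 0.57 (SE 0.25, limma adjusted p = 0.245, exact permutation p = 0.143). Without control 2 it was 0.83 (SE 0.10, limma adjusted p = 0.00181), and that of the probe at 1704 was 0.62 (SE 0.09, limma adjusted p = 0.00363). With the coverage difference as a covariate, the fold changes of the probes at 1704 and 1779 were −0.06 (limma adjusted p = 0.711) and −0.03 (limma adjusted p = 0.895). Both Slc1a2 probes thus gave one answer in each fit, and the answer depended on the fit.

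Slc1a3 encodes GLAST, the other glutamate transporter of astrocytes, and its probes went in opposite directions. At the probe at 1751, the controls were at −1.67, −0.40, −1.72 and −1.44, and the stressed rats at −0.57, −0.85, −0.85 and −0.81. Control 2 was the highest array, and the other controls were the lowest. The fold change was 0.54 (SE 0.28, limma adjusted p = 0.311, exact permutation p = 0.143), with a 95% interval from −0.11 to 1.19. Without control 2 it was 0.84 (SE 0.10, limma adjusted p = 0.00191), and with the covariate it was −0.15 (limma adjusted p = 0.459).

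At the Slc1a3 probe at 3787, which holds the AATAAA shown above, the controls were at 2.88, 2.87, 2.80 and 2.74, and the stressed rats at 2.87, 2.63, 2.45 and 2.55. Here control 2 lay with the other controls, and stressed 1 was the only stressed rat within their range. The fold change was −0.20 (SE 0.10, limma adjusted p = 0.294, exact permutation p = 0.0857), with a 95% interval from −0.43 to 0.03. Leaving out control 2 changed it little, to −0.19 (limma adjusted p = 0.217), and the covariate gave −0.23 (limma adjusted p = 0.353). This was the only tested member probe not called without control 2 apart from Glud1.

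The direction of Slc1a3 therefore rested on the probe. The probe at 1751 minus the probe at 3787, which start 2036 bases apart in the transcript, was −0.79, 0.49, −0.76 and −0.42 in controls 1 to 4, centred over the arrays. It was 0.33, 0.29, 0.46 and 0.40 in stressed rats 1 to 4. All stressed rats were above controls 1, 3 and 4, and control 2 was above all stressed rats. The groups differed by 0.74 on the log2 scale (exact permutation p = 0.143), and by 1.03 without control 2. Over the 1787 transcripts with a 5′ and a 3′ probe, the same group difference had a median of 0.28, with the 5th and 95th percentiles at −0.33 and 0.90, and 89.1% of transcripts had a smaller difference than Slc1a3. Over the 419 transcripts whose probes lie at least as far apart as those of Slc1a3, the median was 0.34.

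**Figure D2:**
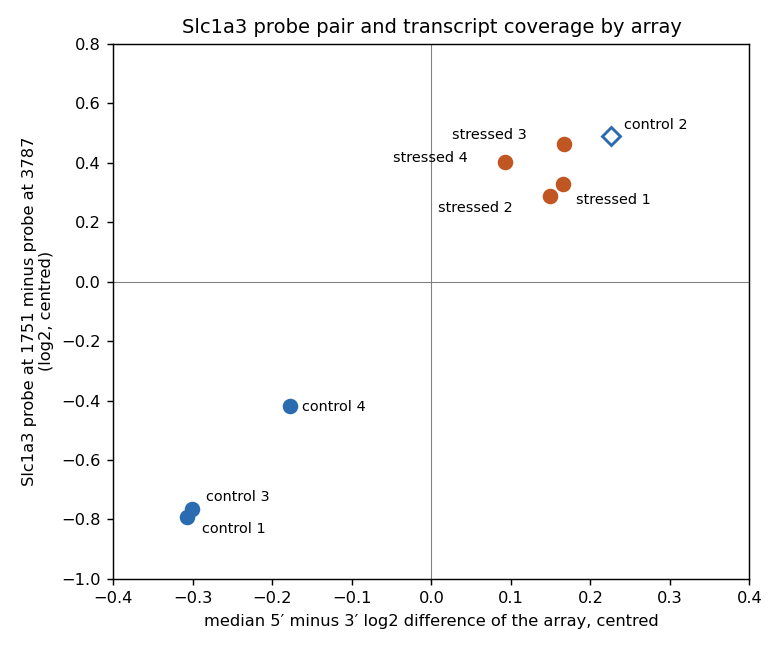
The Slc1a3 probe at 1751 minus the probe at 3787 (log2, centred) on the vertical axis, against the coverage difference of each array, the median of 5′ minus 3′ probe signals (log2, centred), on the horizontal axis, with 1 point per rat. Controls 1, 3 and 4 lie at the lower left, from −0.79 to −0.42 on the vertical axis, and control 2 lies at the upper right with the 4 stressed rats, from 0.29 to 0.49.

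The plot of the Slc1a3 probe pair shows that the arrays fall into the same sets by this gene and by coverage over the transcripts. As both measures share the arrays, and the points form separate sets, no correlation is given.

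Glul encodes glutamine synthetase, an enzyme of astrocytes and oligodendrocytes. Its probe at 2290, which has no position on rn4 in the files, was at 3.03, 3.50, 3.02 and 3.15 in controls and at 3.52, 3.38, 3.41 and 3.42 in stressed rats. Control 2 lay within the range of the stressed rats, and the other controls lay below it. Glul had a fold change of 0.26 (SE 0.12, limma adjusted p = 0.252, exact permutation p = 0.114), with a 95% interval from −0.004 to 0.53. Without control 2 it was 0.37 (SE 0.06, limma adjusted p = 0.00575), and with the covariate 0.01 (limma adjusted p = 0.934).

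The other membrane transporters gave opposite signs. Slc1a1 encodes EAAC1, the glutamate transporter of neurons, and its probe at 1740 is at chr1:232549520-232549579, plus strand. It was at −0.77, −1.01, −0.62 and −0.78 in controls and at −1.01, −0.97, −1.25 and −0.94 in stressed rats. Control 2 lay within the range of the stressed rats, which were otherwise lower than the controls. Slc1a1 had a fold change of −0.25 (SE 0.11, limma adjusted p = 0.246, exact permutation p = 0.0857). Without control 2 it was −0.32 (limma adjusted p = 0.0371), and with the covariate −0.08 (limma adjusted p = 0.718).

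Slc1a4 encodes ASCT1, a transporter of alanine, serine and other neutral amino acids in the same family. Its probe at 1785 is at chr14:101123891-101123950, minus strand. It was at −5.42, −3.95, −5.33 and −5.11 in controls and at −4.39, −4.38, −4.19 and −4.32 in stressed rats, where control 2 was the highest array. The fold change of 0.64 (SE 0.30, limma adjusted p = 0.280, exact permutation p = 0.143) was the farthest from 0 among the tested member probes. Without control 2 it was 0.97 (SE 0.09, limma adjusted p = 0.000967), with the covariate −0.12 (limma adjusted p = 0.536), and after a normexp background correction 0.20.

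Of the vesicular transporters, the one that could be measured was Slc17a6, which encodes VGLUT2, the transporter of most excitatory neurons of the spinal cord. Its probe at 3774, which has 10 spots per array, is at chr1:101465828-101465887, plus strand. It was at 2.77, 2.48, 2.67 and 2.70 in controls and at 2.47, 2.31, 2.31 and 2.48 in stressed rats. All stressed rats were below all controls, but stressed 4 and control 2 were equal to 2 decimals. The group means were 2.66 ± 0.12 (SD, n = 4) and 2.39 ± 0.10 (SD, n = 4).

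The fold change of Slc17a6 was −0.26 (SE 0.09, exact permutation p = 0.0286, the smallest possible), with a 95% interval from −0.47 to −0.06. The limma adjusted p was 0.174, and 5.44% of all tested probes were likewise lower in all stressed rats. Without control 2 the fold change was −0.32 (SE 0.07, limma adjusted p = 0.0144), and with the covariate it was −0.13 (limma adjusted p = 0.412). Slc17a6 kept its sign in every fit that was run, as did Slc1a1, Glul and the Slc1a3 probe at 3787.

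Slc17a7 and Slc17a8 encode VGLUT1 and VGLUT3. VGLUT1 in the cord is known from the endings of large sensory fibres and descending tracts, whose cell bodies lie elsewhere. The Slc17a7 probe (chr1:95649107-95649166, plus strand) and the Slc17a8 probe (chr7:26361525-26361584, minus strand) were well above background on 0 of the 8 arrays. Their processed signals were 2.96 to 6.10 and 3.24 to 9.84. No fold change is given for them.

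Glud1 encodes glutamate dehydrogenase, and it was the member with the fold change nearest to 0. Its probe at 2756 (chr16:9999144-9999203, plus strand) was at 4.60, 4.68, 4.65 and 4.59 in controls and at 4.66, 4.52, 4.72 and 4.67 in stressed rats. The groups overlapped, and control 2 was within the range of both. Glud1 had a fold change of 0.01 (SE 0.07, limma adjusted p = 0.925, exact permutation p = 0.857), and its 95% interval ran from −0.15 to 0.17. It was 0.03 (limma adjusted p = 0.748) without control 2.

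The call on these genes depended on 1 control rat. Control 2 lay nearer to the stressed mean than to the mean of the other controls at 8 of 9 member probes. Without it, 7 of 9 probes of 6 genes passed FDR below 0.1, of which 5 were higher in stressed rats (both Slc1a2 probes, the Slc1a3 probe at 1751, Slc1a4 and Glul) and 2 were lower (Slc1a1 and Slc17a6). In the same fit, 42.4% of all tested probes passed, 30.5% higher and 11.9% lower. The median fold change of the members was then 0.37, and that of all probes was 0.09. With the coverage difference as a covariate, 0 of 9 member probes had an unadjusted p below 0.05 and 0 passed FDR below 0.1, where 23.1% and 9.9% of all tested probes did. As this fit rests largely on control 2 to tell coverage from group, it cannot decide between them. The part of transcript coverage in these differences was not tested.

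**Figure D3:**
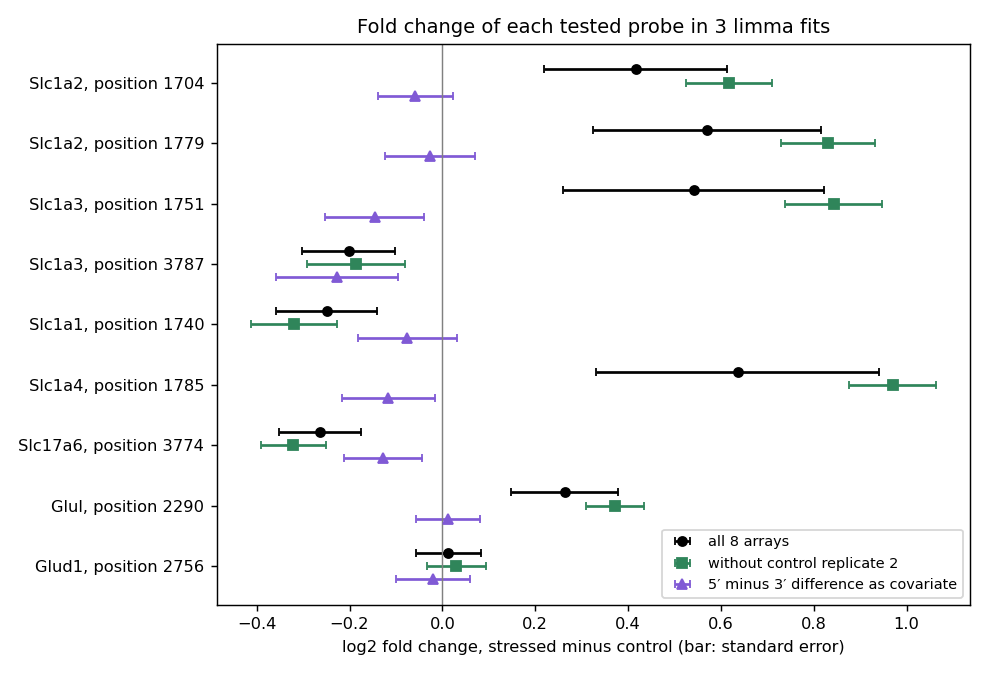
Log2 fold change (stressed minus control, bars give the standard error) of the 9 tested probes in 3 limma fits: all 8 arrays (black circles), without control 2 (green squares), and with the coverage difference of the array, 5′ minus 3′, as a covariate (purple triangles). Both Slc1a2 probes, the Slc1a3 probe at 1751 and Slc1a4 are above 0 in the first and second fits and below 0 in the third, while the Slc1a3 probe at 3787, Slc1a1 and Slc17a6 are below 0 in each.

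The plot of the 3 fits also shows that leaving out control 2 shortened the error bars of the probes at which it stood apart. The standard error of Slc1a4 went from 0.30 to 0.09 and that of the Slc1a3 probe at 1751 from 0.28 to 0.10.

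The comparison of glial uptake with vesicular loading was made on each array, as the mean of Slc1a2, Slc1a3 and Glul minus that of the vesicular genes, each probe centred over the 8 arrays and each gene represented by its brightest probe. No test was made on this score, as the genes were chosen with results known. The glial mean was −0.20, 0.25, −0.23 and −0.13 in controls and 0.22, 0.03, 0.05 and 0.02 in stressed rats, a difference of 0.16. Slc17a6 on the same scale was 0.24, −0.04, 0.15 and 0.18 in controls and −0.05, −0.22, −0.21 and −0.04 in stressed rats. The glial mean was thus lowest, and Slc17a6 highest, on the same 3 control arrays, although the Slc1a3 probe at 3787 in that mean was higher on these arrays than in 3 of the 4 stressed rats.

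Glial minus Slc17a6 was −0.45, 0.29, −0.37 and −0.31 in controls, and 0.28, 0.24, 0.26 and 0.06 in stressed rats. The difference between the groups was 0.42, and 0.59 without control 2. With the Slc1a3 probe at 1751 in place of the probe at 3787 it was 0.67, and 0.93 without control 2. With all 3 vesicular genes, of which Slc17a7 and Slc17a8 were at background, the difference was −0.22, so the sign of the score rested on probes that were not well above background. The use of Slc17a6 alone and the change of the Slc1a3 probe were chosen after seeing the data.

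**Figure D4:**
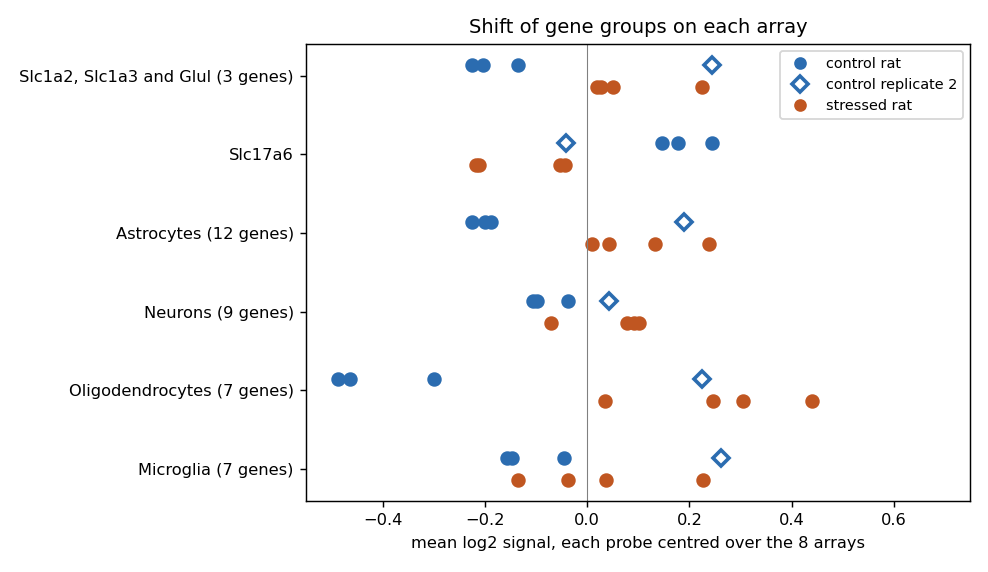
Mean log2 signal of 6 gene groups on each array, each probe centred over the 8 arrays, with 1 point per rat. Controls 1, 3 and 4 lie at the left for the glial transport genes, astrocytes and oligodendrocytes and at the right for Slc17a6, and control 2 (open diamond) lies near the stressed rats in each of these.

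Marker lists of the cells of the cord were set beside these genes, on the same arrays. Of the astrocyte list 12 of 12 genes passed the filter on background, of the neuronal list 9 of 10, of the oligodendrocyte list 7 of 7 and of the microglial list 7 of 7. The mean shift of 12 astrocyte markers was −0.20, 0.19, −0.23 and −0.19 in controls and 0.13, 0.04, 0.24 and 0.01 in stressed rats. In limma, 0 of 12 passed FDR below 0.1 and 2 had an unadjusted p below 0.05, against 3.74% and 20.3% of all probes. Of the 12 markers, 10 had a fold change above 0, and the median was 0.21. Without control 2, 5 of 12 passed, all higher, where 30.5% of all tested probes were called higher, and the median was 0.29. With the covariate the median was 0.02.

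Among single astrocyte markers, Gja1, the gap junction protein connexin 43, had a fold change of 0.30 (limma adjusted p = 0.120), with all stressed rats above all controls. This fold change was 0.30 without control 2 (limma adjusted p = 0.0301) and 0.31 with the covariate. Gfap, the intermediate filament of astrocytes, had one of 0.81 (limma adjusted p = 0.322), which was 1.20 without control 2 (limma adjusted p = 0.0234) and −0.13 with the covariate. Aldh1l1, a folate enzyme of astrocytes, had one of −0.08 (limma adjusted p = 0.477). Of the neuronal markers, 1 of 9 was called, against 3.74% of all tested probes. It was Eno2, neuron-specific enolase, which was lower in stressed rats (fold change −0.37, limma adjusted p = 0.0649). The Eno2 value was −0.40 without control 2 (limma adjusted p = 0.00419) and −0.30 with the covariate. A value above 0 was found for 7 of 9, and the median was 0.09. The mean shift of the neuronal markers did not split the arrays as Slc17a6 did, with stressed 3 at −0.07 below control 4 at −0.04. The share of neuronal or astrocyte content in the differences of the glutamate genes was not tested.

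Of 7 oligodendrocyte markers, 1 was called higher (Mog, fold change 0.90, limma adjusted p = 0.0721), against 2.77% of all tested probes. A value above 0 was found for 6 of them, and the median was 0.27. The mean shift of this list was −0.49, 0.22, −0.46 and −0.30 in controls and 0.25, 0.31, 0.44 and 0.04 in stressed rats, so control 2 again lay among the stressed rats. Of 4 endothelial markers, 1 was called higher, against the same 2.77%, 4 had a value above 0 and the median was 0.23. Without control 2, 4 of the 7 and 3 of the 4 were called higher, where 30.5% of all tested probes were. With the covariate, the median was 0.03 for the oligodendrocyte list and −0.07 for the endothelial list. The called endothelial marker was Pecam1 (fold change 0.40, limma adjusted p = 0.0927). Mog had 1.03 without control 2 and 0.53 with the covariate, and Pecam1 had 0.39 and 0.43. None of 7 microglial, 5 motor neuron, 4 Schwann cell, 4 meningeal and fibroblast, or 3 red blood cell markers was called in limma. At an unadjusted p below 0.05 there were also 0 in these lists. The shares of all tested probes were 3.74% and 20.3%. The median fold changes of these lists, in the same order, were 0.02, −0.19, −1.10, −0.30 and −0.11. The Schwann cell markers ranged from −2.05 to 2.79 between arrays of the control group alone.

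A wider list of 30 genes of glutamate and glutamine handling was measured in full. It holds other transporters of the Slc1 and Slc38 families, aminotransferases, mitochondrial carriers and enzymes that use glutamine. In limma 1 of 30 genes was called, Bcat2, where 3.74% of all tested probes were, and 15 of 30 had a fold change above 0, with a median of 0.00. At an unadjusted p below 0.05, 3 were higher (Bcat2, Slc25a13 and Slc1a5) and 2 lower (Gpt and Slc1a6), where 20.3% of all tested probes passed in either direction.

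Bcat2 encodes the mitochondrial branched-chain aminotransferase, which makes glutamate from leucine, isoleucine or valine. Its probe at 1389 was at −1.72, −1.70, −1.73 and −1.66 in controls and at −1.05, −1.19, −1.20 and −1.03 in stressed rats. All stressed rats were above all controls, and control 2 lay with the controls. Bcat2 rose by 0.58 on the log2 scale (SE 0.07, limma adjusted p = 0.0303, exact permutation p = 0.0286). Its second probe, at 1401, overlaps the first and is no independent measurement, and it gave 0.57 (SE 0.08, limma adjusted p = 0.0430). The value at 1389 was the same to 2 decimals without control 2 and with the covariate, with limma adjusted p values of 0.00149 and 0.0401. The call was lost, at a fold change of 0.56 to 0.61, without stressed 1, stressed 2, control 1 or control 3, with limma adjusted p values from 0.103 to 0.149.

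The 4 genes that had only an unadjusted p below 0.05 were not called. Slc1a5, the glutamine carrier ASCT2, had a fold change of 0.36 (limma adjusted p = 0.178) with all stressed rats above all controls. Slc25a13, a mitochondrial aspartate and glutamate carrier, had 0.56 at one probe (limma adjusted p = 0.195) and 0.27 at the other (limma adjusted p = 0.266). Without control 2, the Slc25a13 probes gave 0.76 and 0.37 (limma adjusted p = 0.00336 and 0.0333), and with the covariate 0.09 and 0.06. Gpt, the cytosolic alanine aminotransferase, had −0.18 (limma adjusted p = 0.207) with all stressed rats below all controls. Slc1a6, the glutamate transporter EAAT4 known from Purkinje cells, was at −2.77, −2.80, −2.71 and −2.76 in controls and at −3.17, −3.47, −3.81 and −3.02 in stressed rats. Its groups did not overlap, and its fold change was −0.61 (SE 0.16, limma adjusted p = 0.121) from 1 spot per array. Without control 2, Slc1a5, Gpt and Slc1a6 had 0.39, −0.18 and −0.62 (limma adjusted p = 0.0616, 0.0824 and 0.0403). With the covariate they had 0.29, −0.21 and −0.54 (limma adjusted p = 0.343, 0.196 and 0.213).

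**Figure D5:**
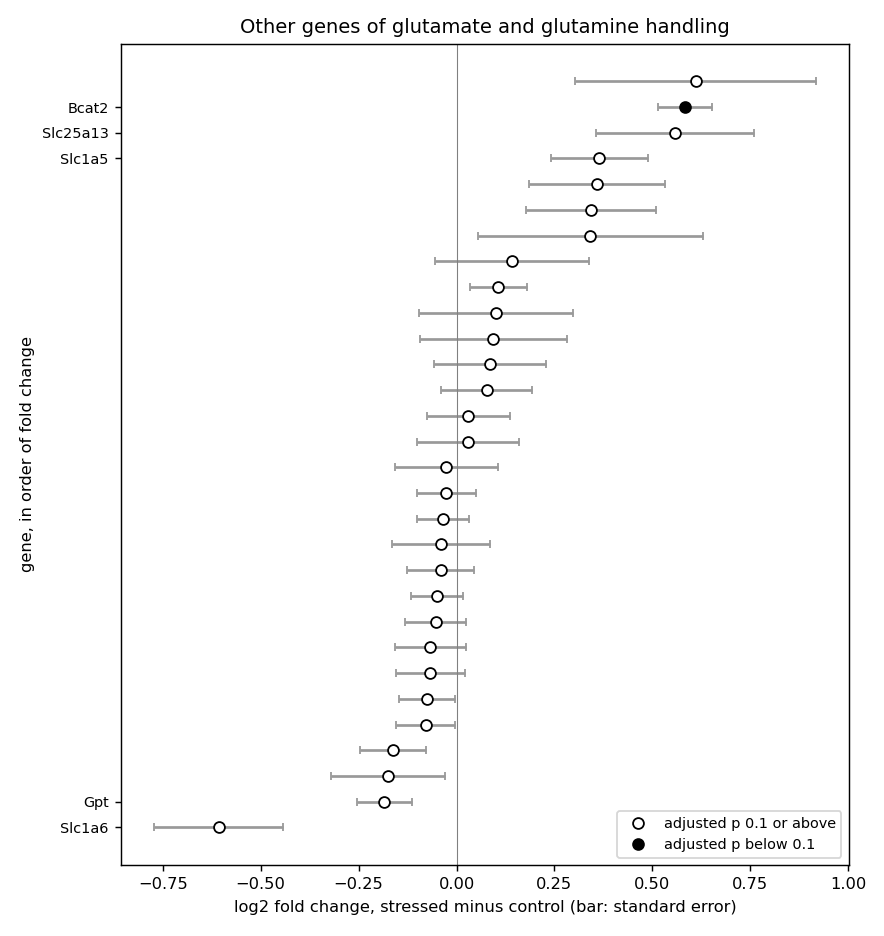
Log2 fold change (stressed minus control, bars give the standard error) of the 30 other genes of glutamate and glutamine handling, with the call at a limma adjusted p below 0.1 as a filled point and names at the genes with an unadjusted p below 0.05. Bcat2 is the filled point, at 0.58, and Slc1a6 is the lowest, at −0.61.

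The plot of the wider list shows that many of its genes had fold changes close to 0. The glutamine carriers Slc38a1, Slc38a2 and Slc38a3 had values of 0.09, −0.07 and −0.03. Kcnj10, the potassium channel Kir4.1 of glia, had 0.34 with a SE of 0.29, which was 0.65 without control 2 (limma adjusted p = 0.0039) and −0.37 with the covariate. Without control 2, 7 of the 30 genes were called higher and 2 lower, where 30.5% of all tested probes were called higher and 11.9% lower.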

How the data were processed

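The RNA of 8 rats was measured on Agilent SurePrint rat gene expression arrays, 1 colour, 1 array per rat. The authors deposited the fluorescence intensity of each spot from Agilent Feature Extraction 10.7.3.1, which per the file headers was background-subtracted and detrended within each array, and a table of the same signal rounded. The study names dChip; its normalization and test are not given in the sources used here.

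The 4259 control spots were left out, and spots marked as outliers were set to missing. The log2 signal minus the log2 of each array's 75th percentile was averaged over the spots of a probe. A probe was tested when at least 0.5 of its spots were well above background on at least 4 arrays, over both groups. Groups were compared with limma 3.58.1 (lmFit, eBayes, no covariate) in R 4.3.3 with data.table (version 1.17.8), over all 23677 probes, with Benjamini-Hochberg adjustment. The fit was tested on simulated data.

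All members and all their probes are named. Of the wider list, genes called at FDR below 0.1 or with an unadjusted p below 0.05 are named in full; the glutamine carriers, Kcnj10 and single markers were picked with their values known. Some genes of the lists count in the totals and are not reported here by name. In counts over genes, each gene is represented by its probe of highest mean signal. The members, the lists and the covariate were chosen with earlier results of these data known. The alternatives were a normexp correction (offset 50), quantile normalization, median centring, the authors' table, robust estimation with a variance trend, array weights, the coverage difference as a covariate, replicate number as a block, testing dim probes too, requiring signal on all 8 arrays, a single probe for each symbol, and omitting arrays in turn. The study's miRNA arrays, RT-PCR, tissue staining and pain measurements were not analysed here.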

Additional observations from a re-analysis of the deposited data

Results flagged for a closer look

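Single arrays that lay far from the others of their group were found for 3 of 38 groups of 4 arrays, by the gap to the nearest array as a share of the range of the group. Chance flags about 1 in 20 groups, or 1.9 of 38. At the Slc1a2 probe at 1779, control 2 was above the other controls with a gap of 0.85 of the range. At the Slc1a3 probe at 1751, stressed 1 was above the other stressed rats with a gap of 0.846 of the range. In the mean shift of Slc1a2, Slc1a3 and Glul, stressed 1 was above the other stressed rats with a gap of 0.844 of the range.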

How the results depend on the processing

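The count of 0 called member probes was also 0 under each alternative run except array weights (7, where 50.6% of all probes were called and control 2 had a weight of 0.107) and leaving out each array (0 to 7, the 7 without control 2). For the glial minus vesicular score, −0.22 with all arrays, the value was 0.16 after normexp correction, 0.0018 with quantile normalization, −0.12 with array weights, 0.42 with Slc17a6 alone, 0.024 with the other Slc1a3 probe, and −0.34 to −0.10 on leaving out each array. Glud1 changed sign after normexp correction (−0.017), median centring (−0.11), array weights (−0.011), the covariate (−0.020) and without stressed 3 (−0.013, where leaving out each array gave −0.013 to 0.053). With the covariate, Slc1a2 (−0.058 and −0.027), the Slc1a3 probe at 1751 (−0.15) and Slc1a4 (−0.12) changed sign. The count of called genes in the wider list, 1 with all arrays, was 2 with quantile normalization, median centring or no filter, 10 with array weights, 5 with the covariate, 0 with the replicate block, and 0 to 9 on leaving out each array (0 without stressed 1, stressed 2, control 1 or control 3, and 9 without control 2). These alternatives for the wider list were chosen after seeing the data. Arrays of the same replicate number deviated together with correlations of −0.09 to 0.31. No stressed array correlated best with the control of its own number. As control 2 stood far from the other controls, this check cannot exclude that the numbers pair the rats. With the replicate block, 0 member probes and 0 of all 23677 were called, and the Bcat2 adjusted p was 0.207.

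Of all probes, 885 were called with all arrays, 655 of them higher. The count was 215 (190 higher) after normexp, 1180 (685) with quantile normalization, 1239 (598) with median centring, 3010 without a filter, 11983 with array weights, 2345 (1148 higher) with the covariate, 10038 without control 2, and 0 to 72 without any other array. The median of all fold changes was 0.06, −0.00 and −0.06 with the 75th percentile, quantile and median scalings. The cause of these changes was not tested.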

Other observations

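The genes whose levels moved over the 8 arrays most like Slc1a2, by the root mean square difference of centred log2 signals over 13391 gene symbols, were Clcc1 (0.0524), Mapk1ip1l (0.0582), Yes1 (0.0599), Dnajc28 (0.0638) and Ntm (0.0646), where the median over all symbols was 0.355. Clcc1 encodes an intracellular chloride channel, Yes1 a Src family kinase and Ntm the adhesion molecule neurotrimin. The genes most like Slc17a6 were Mcart1 (0.0281), Lrrc48 (0.0319), Prkaca (0.0327), MGC94542 (0.0346) and Sorl1 (0.0380), with a median of 0.259. Prkaca encodes a catalytic subunit of protein kinase A and Sorl1 a sorting receptor. The 8 points share the separation of control 2 and of transcript coverage, so likeness here is a description of these arrays.

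Beyond glutamate transport, Nefl, the light neurofilament of axons, had a fold change of 0.57 (limma adjusted p = 0.120) and Cldn11, a tight junction protein of myelin, one of 0.59 (limma adjusted p = 0.132) with all stressed rats above all controls. Chat, the enzyme that makes acetylcholine in motor neurons, had 0.67 (SE 0.31, limma adjusted p = 0.272), while Isl1, a transcription factor of the same neurons, had −0.47 (SE 0.22, limma adjusted p = 0.266). Without control 2, Nefl, Cldn11, Chat and Isl1 had 0.70, 0.73, 0.94 and −0.63. With the covariate they had 0.27, 0.23, 0.03 and −0.13. These genes were chosen after their values were seen.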
